A study of Mus musculus with 16 samples.

Results

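The heavy chain variable segments are the genes whose symbol starts with Ighv. All such lines of the deposited count table were taken, 108 of 40409 lines after exact copies were removed, and none of the 108 had been copied. They were measured by RNA sequencing in the livers of 16 littermate db/db mice, a model of obesity and diabetes caused by loss of the leptin receptor. Each mouse received, at about 5 weeks of age, adeno-associated virus 8 (AAV8), a vector that infects hepatocytes well, and livers were collected 5 weeks later, at 10 weeks of age. In the control group of 8 mice the vector encoded green fluorescent protein (GFP), and in the other group of 8 it encoded arcA, which the labels do not define. The labels name no promoter, vector dose, sex or background strain beyond db/db, and no uninjected group was analysed here, so a rise in GFP livers and a fall in arcA livers cannot be told apart.

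An antibody heavy chain is assembled in the developing B cell, which joins 1 variable (V), 1 diversity (D) and 1 joining (J) segment into an exon placed upstream of the constant genes. The V segment encodes most of the part that contacts antigen. A B cell and its descendants keep the same rearranged V segment, so V segments expressed in a tissue are a trace of its B-lineage cells. Resting B cells carry mostly IgM and IgD at the surface, while plasma cells secrete large amounts of antibody, often after switching to IgG or IgA. In bulk tissue, fewer B-lineage cells and less antibody RNA per cell cannot be told apart.

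The sequences of 3 segments follow, because these were the segments whose counts in every arcA liver lay below those in every GFP liver. Each stretch is the last 150 bases of the V exon, 5′ to 3′, on the minus strand of GRCm38, from the GENCODE M21 annotation. Capitals mark the bases that differ from the most similar other Ighv sequence of that annotation. Ighv1-63 lies at chr12:115495625-115495774 and is compared with Ighv1-73, Ighv8-12 lies at chr12:115647945-115648094 and is compared with Ighv8-13, and Ighv1-26 lies at chr12:114788372-114788521 and is compared with Ighv1-18.
Ighv1-63: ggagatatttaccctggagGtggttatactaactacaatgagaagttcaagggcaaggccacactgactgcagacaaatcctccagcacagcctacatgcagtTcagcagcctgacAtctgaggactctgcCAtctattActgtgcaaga
Ighv8-12: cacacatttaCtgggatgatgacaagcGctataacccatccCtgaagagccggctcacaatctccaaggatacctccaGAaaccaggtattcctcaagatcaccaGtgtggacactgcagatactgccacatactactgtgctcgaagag
Ighv1-26: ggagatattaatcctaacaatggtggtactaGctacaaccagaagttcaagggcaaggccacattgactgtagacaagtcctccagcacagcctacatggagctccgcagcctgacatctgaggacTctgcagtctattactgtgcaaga

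Segments of 1 family are close copies, and this limits how finely reads can be assigned. Ighv1-63 was 97.4% identical to Ighv1-73 over the 351 bases compared, with 9 bases different. Ighv1-73 has no line of its own in the count table. Ighv8-12 differed from Ighv8-13 at 11 of 301 bases, and Ighv1-26 from Ighv1-18 at 11 of 351. Ighv1-63 and Ighv8-12, of different families, were 63.6% identical over 332 bases. Of all 50-base stretches of each segment, 34.1% in Ighv1-63, 19.7% in Ighv8-12 and 49.0% in Ighv1-26 also occur in another Ighv sequence. Over the 20 most abundant segments the median of this share was 29.0%. The counts of single segments are therefore uncertain where neighbours in sequence share reads, and sums over families or over all segments depend less on that split.

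Library depth was 28912563 to 53520828 counts in GFP livers and 37325610 to 45874797 in arcA livers. GFP 2, 3 and 5 had 11.8%, 18.1% and 19.4% of their counts on Gm42418, a gene that lies over ribosomal RNA, and no other liver had more than 7.37%. Of member counts between 1 and 20, 72.8% were even, as would happen if both mates of a read pair were counted. The sources used here do not say how mates were handled. If they were counted separately, the counting intervals and the folds against a counting floor given here would be too confident. The replicates are separate mice.

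The 108 segments together held 8174 counts over the 8 GFP livers and 96 counts over the 8 arcA livers. GFP 1 to 8 held 1477, 480, 425, 789, 622, 833, 3217 and 331 Ighv counts. In arcA 1 to 8 the counts were 13, 14, 19, 12, 8, 8, 13 and 9. The groups did not overlap, GFP 7 and GFP 1 stood highest, and every arcA liver was far below the lowest GFP liver, GFP 8. In CPM, counts scaled to a common library size by the TMM method, the sum had a lowest value of 8.87, a median of 19.0 and a highest value of 53.7 in GFP livers. In arcA livers it had a lowest value of 0.195, a median of 0.287 and a highest value of 0.450. The means were 23.3 ± 14.2 CPM in GFP livers and 0.294 ± 0.0937 CPM in arcA livers (SD, n = 8 each), a ratio of means of 79.0. The lowest GFP liver was 19.7-fold above the highest arcA liver. This sum is a description of the whole set of segments and carries no test.

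**Figure D1:**
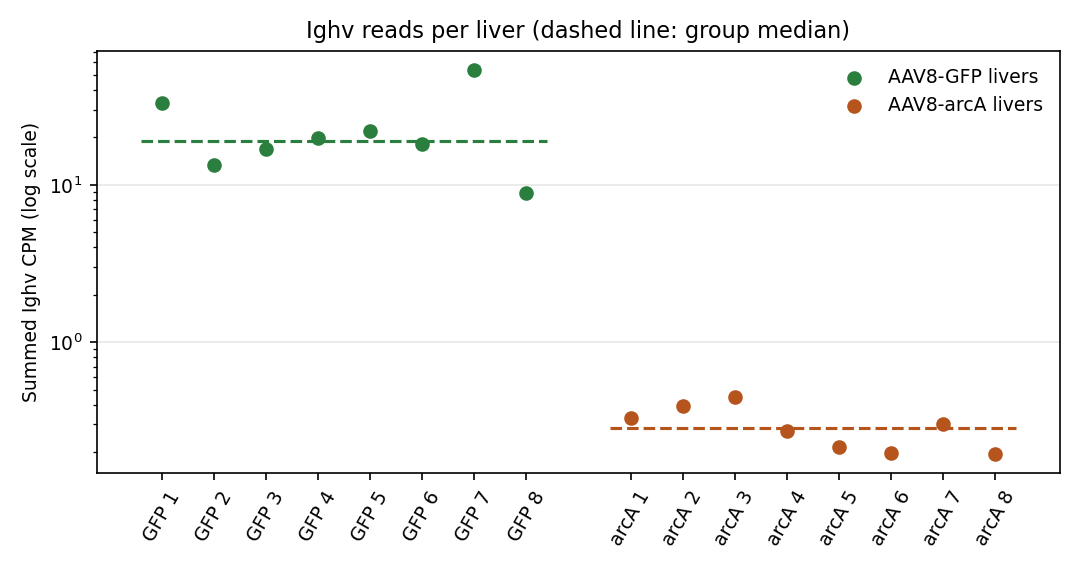
Summed CPM of the 108 Ighv segments in each liver, on a log scale; each point is 1 mouse and the dashed lines are group medians (19.0 in GFP and 0.287 in arcA livers). The GFP livers lie between 8.87 and 53.7 CPM and the arcA livers between 0.195 and 0.450 CPM, with no overlap.

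The difference was spread over many segments. Any count at all was found for 89 of the 108 segments, and 19 had 0 counts in every library. Counts were found for 88 segments in GFP livers and for 29 in arcA livers. Of the 88, 60 had 0 counts over all arcA livers, and 62 had at least 10 counts over the GFP group against 1 segment over the arcA group. Ighv9-1, with 1 count, was the only segment seen in arcA livers alone. No segment had more than 4 counts in any 1 arcA liver. The number of segments with at least 10 counts in a liver was lowest at 6 in GFP 8, had a median of 14.5 and was highest at 38 in GFP 7, and it was 0 in each arcA liver. A total of 8 to 19 counts per arcA liver limits this number, so absence of a segment there means that it was not detectable at this depth.

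A count test across all genes could be applied to few segments. With edgeR's usual filter on low counts, 2 of the 108 were tested, Ighv1-63 and Ighv8-12, and both were called lower in arcA livers and none higher. Over all 14476 lines tested, 6.57% were called lower and 4.27% higher. Both segments passed the filter through their GFP counts alone, since their arcA counts were all 0, so that count gives no support by itself. By DESeq2 and by limma voom both were also called lower and none higher. With 0 counts in every arcA liver they could only come out lower, so these calls add no support. Of the 14476 lines, DESeq2 called 1255 lower and 780 higher, and limma voom called 1130 and 800. Without the filter, 89 segments were tested with edgeR, 38 were called lower and 0 higher, against 3.84% lower and 1.81% higher of 26533 lines. In that fit 71 segments were lower and 0 higher at an unadjusted p under 0.05, with no share over all lines at that threshold to set beside them. Of the segments in that fit, 60 had 0 counts over all arcA livers and could only come out lower. The numbers of segments called without the filter therefore give no support by themselves either. The median log2 fold change of the 89 was -4.27, against -0.02 over all lines. Since 60 of the 89 could only come out lower, this median was bound to be negative and gives no support either. Each arcA liver was below each GFP liver for 3 segments, against 0.825% of the 26533 lines with any count, and each was above for 0 segments, against 0.313% of lines. The 3 became 6 without GFP 3 and 5 without GFP 8.

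Ighv1-63 (ENSMUSG00000096672, chromosome 12, 115495625 to 115496058, minus strand) had the most counts pooled over all livers. Its counts in GFP 1 to 8 were 122, 28, 73, 36, 19, 47, 869 and 145, and it had 0 counts in all arcA livers. GFP 7 stood far above the others and held 64.9% of the GFP counts of this segment. Ighv1-63 was at least 462-fold lower in arcA livers against a floor of 3 counts over the arcA group, and at least 200-fold lower without GFP 7. The adjusted p of the edgeR test was 0.0123 (log2 fold change -10.14, SE 1.80), but with surrogate variables in the fit it was 0.188, so that call depends on the model.

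Ighv8-12 (ENSMUSG00000076731, chromosome 12, 115647945 to 115648387) came second in pooled counts, an order set by GFP 7. Without GFP 7 it had 676 counts and Ighv1-63 had 470, and its median in GFP livers was 2.41 CPM, against 1.88 CPM for Ighv1-63. Its counts in GFP 1 to 8 were 289, 37, 80, 135, 23, 74, 353 and 38, with 0 counts in all arcA livers. It was at least 355-fold lower in arcA livers, and at least 288-fold lower without GFP 7 (edgeR, log2 fold change -9.90, SE 1.20, adjusted p = 0.00180). Only Ighv1-63 and Ighv8-12 had at least 10 counts in all 8 GFP livers. They held 29.0% of all GFP Ighv counts, and the other 106 segments held 5806 GFP counts and all 96 arcA counts.

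Ighv1-26 (chromosome 12, 114788372 to 114788805) was the other segment found in all 8 GFP livers. Its GFP counts were 59, 6, 24, 4, 3, 74, 109 and 1, and all arcA counts were 0. The groups were separated by only 1 count in GFP 8. Ighv1-26 was at least 96.7-fold lower in arcA livers, 72.8-fold without GFP 7. It did not pass the filter, and in the edgeR fit without the filter its log2 fold change was -7.98 (SE 1.73, adjusted p = 0.0421).

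Several abundant segments came mostly from a single GFP liver. Ighv1-76 had 334 counts in GFP 1, 103 in GFP 5 and between 0 and 45 in the other GFP livers, with 0 in all arcA livers. It was at least 195-fold lower in arcA livers over all mice and 93.3-fold without GFP 1. Ighv1-80 had 192 of its 263 GFP counts in GFP 4, and Ighv2-2 had 156 of its 190 in GFP 5. Ighv10-1 had 265 of 310 in GFP 7 and Ighv1-82 had 252 of 308 in the same liver. Ighv1-4 had 80 of 91 in GFP 2, and Ighv2-5 had 113 of 129 in GFP 1. Of the 32 segments with at least 50 GFP counts, 19 had more than 50% of them in 1 liver. At the extreme, all 70 counts of Ighv15-2 came from GFP 7, and 97.2% of those of Ighv7-3 came from GFP 1.

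For the abundant segments named next, no 1 GFP liver held more than 50% of the GFP counts, though some were still concentrated in a few livers. Ighv1-22 had counts in 7 of 8 GFP livers, 134 in GFP 6 and 138 in GFP 7 and between 0 and 24 in the others. Ighv1-9 reached 94 counts in GFP 6 and lay between 52 and 72 in GFP 4, 5 and 7. Ighv1-66 had its highest count, 34, in GFP 4 and was found in 7 of 8 GFP livers. Ighv1-64 was likewise found in 7 of 8, with a highest count of 44 in GFP 6. Ighv1-18, the nearest relative of Ighv1-26, had 40 counts in GFP 2 and 49 in GFP 5. The 20 most abundant segments together held 77.4% of GFP Ighv counts.

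**Figure D2:**
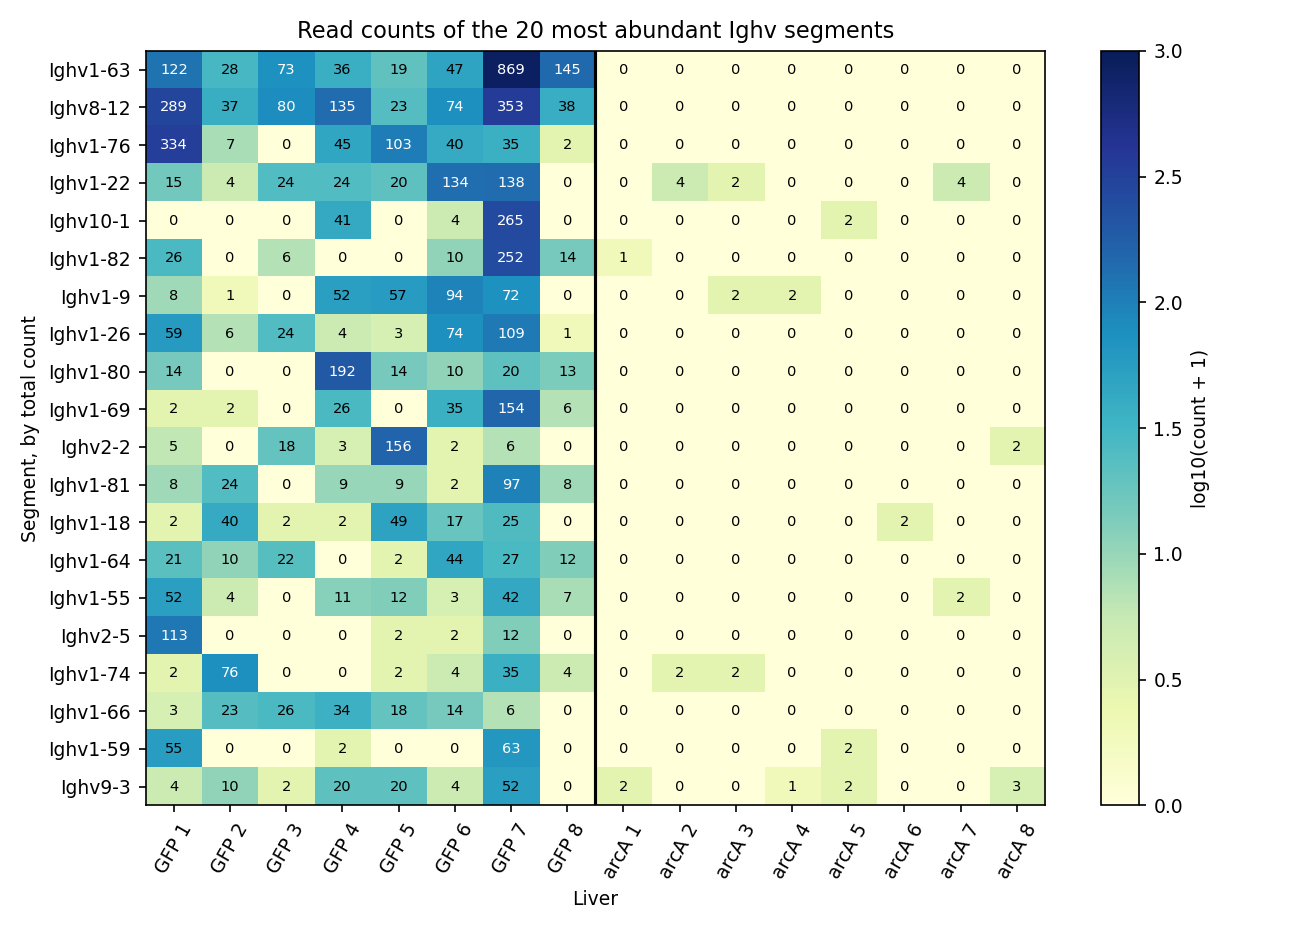
Read counts of the 20 segments with the most counts over all livers, 1 column per mouse, coloured by log10(count + 1) with the count written in each cell. Ighv1-63 and Ighv8-12 have counts in all 8 GFP livers, whereas Ighv1-80 and Ighv2-2 peak in 1 liver; no cell of the arcA livers exceeds 4 counts.

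The leading segment varied among the GFP livers. The segment with the most counts was Ighv1-76 in GFP 1, Ighv1-4 in GFP 2, Ighv8-12 in GFP 3, Ighv1-80 in GFP 4, Ighv2-2 in GFP 5, Ighv1-22 in GFP 6, and Ighv1-63 in both GFP 7 and GFP 8. Thus 7 different segments led in 8 livers, in some by few counts. Ighv1-4 had 80 counts in GFP 2, where Ighv1-74 had 76, and Ighv8-12 had 80 in GFP 3, where Ighv1-63 had 73. In GFP 8, Ighv1-63 had 145 and the next segment, Ighv8-12, 38. Dividing counts by exon length, which was 294 to 480 bases, left the leader the same in 8 of 8 livers. The leading segment held 16.1% to 43.8% of a liver's Ighv counts, with a median of 23.5%. In GFP 8 the share was 43.8% (exact Clopper-Pearson 95% interval 38.4% to 49.3%) and in GFP 6 it was 16.1% (13.7% to 18.8%); the intervals cover counting error only. The 5 leading segments of a liver held 50.8% to 70.1% of its Ighv counts. Simpson's concentration, the chance that 2 counts drawn from a liver fall on the same segment, was 6.83% in GFP 6, 21.6% in GFP 8 and between these in the other 6. Its inverse, an effective number of equally used segments, ran from 4.64 in GFP 8 to 14.6 in GFP 6. With 8 to 19 counts each, arcA livers held too few counts for these measures.

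The counts that arcA livers did hold were thinly spread. At least 1 count was found for 3 to 10 segments per arcA liver, against 30 to 61 per GFP liver. Ighv1-22 led with 10 counts, from arcA 2, 3 and 7, and the ratio of its GFP to arcA level was 37.2 (exact 95% counting interval 19.99 to 78.2). Ighv9-3 had 8 arcA counts from 4 livers, against 112 in GFP livers, a ratio of 14.5 (7.11 to 34.4). Ighv14-3 had 6 arcA and 32 GFP counts, a ratio of 5.53 (2.28 to 16.2). Several further segments had 4 arcA counts each, among them Ighv1-9 and Ighv1-53, with ratios of 73.6 (28.4 to 272) and 27.7 (10.5 to 104). Ighv6-4 and Ighv9-4 had 4 arcA counts against 2 GFP counts, a ratio of 0.52 with an interval of 0.05 to 3.61 that spans equal levels. These intervals treat counts as independent and leave out the spread between mice.

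By family, the number after Ighv, the same pattern held for most of the 16 families. The mean CPM was higher in GFP livers for 12 families, and Ighv11, Ighv13 and Ighv16 had 0 counts in every liver. Ighv12 had 2 counts in each group. Ighv1, the family with the most segments, had a lowest value of 7.16, a median of 12.8 and a highest value of 35.5 CPM in GFP livers, and between 0.0253 and 0.308 CPM in arcA livers. Its 50 segments were 46.3% of all segments and held 66.1% of GFP counts (5405) and 45.8% of arcA counts (44). The mean level of Ighv1 was 114-fold higher in GFP than in arcA livers. Ighv8 held 1059 GFP counts and 0 arcA counts, nearly all from Ighv8-12 (97.2%), and was at least 366-fold lower in arcA livers and 297-fold without GFP 7. Ighv2 had 459 and 4 counts and Ighv5 had 300 and 4, which gave ratios of mean CPM of 137 and 68.8. The ratio of Ighv2 was 90.7 without GFP 5, 276 without arcA 2 and 212 without arcA 8. All 4 arcA counts of Ighv5 came from arcA 6. For Ighv1, Ighv2, Ighv5 and Ighv8 every arcA liver lay below every GFP liver. The margin of Ighv2 was thin, with 3 counts in GFP 4 (0.0751 CPM) against 2 in arcA 2 (0.0563 CPM).

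Most of the other families rested on few counts. Ighv9 had 119 GFP and 13 arcA counts, a ratio of mean CPM of 9.16, and Ighv14 had 116 and 10, a ratio of 10.1. Ighv6 had 52 and 8 counts, a ratio of 6.38 that was 4.13 without GFP 1 and 10.9 without arcA 3. Ighv3 had 125 and 5, a ratio of 19.0 that was 10.7 without GFP 7 and 29.3 without arcA 2. Ighv9, Ighv14 and Ighv6 held 13.5%, 10.4% and 8.33% of the arcA counts, against 1.46%, 1.42% and 0.636% of the GFP counts. Ighv4, a single segment here, had 71 GFP counts in 6 livers and 0 in arcA livers, at least 24.5-fold lower and 18.2-fold without GFP 6. Ighv10 had 320 GFP counts, of which 273 came from GFP 7, and 2 arcA counts. The 70 counts of Ighv15 all came from GFP 7. Ighv7 had 76 counts in GFP livers, 72 of them in GFP 1, and 4 in arcA livers. Its log2 ratio of arcA to GFP went to -0.33 when GFP 1 was left out, from a ratio of mean CPM of 17.1 (GFP over arcA) with all mice. That ratio was 32.4 without arcA 5 and 27.8 without arcA 7.

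**Figure D3:**
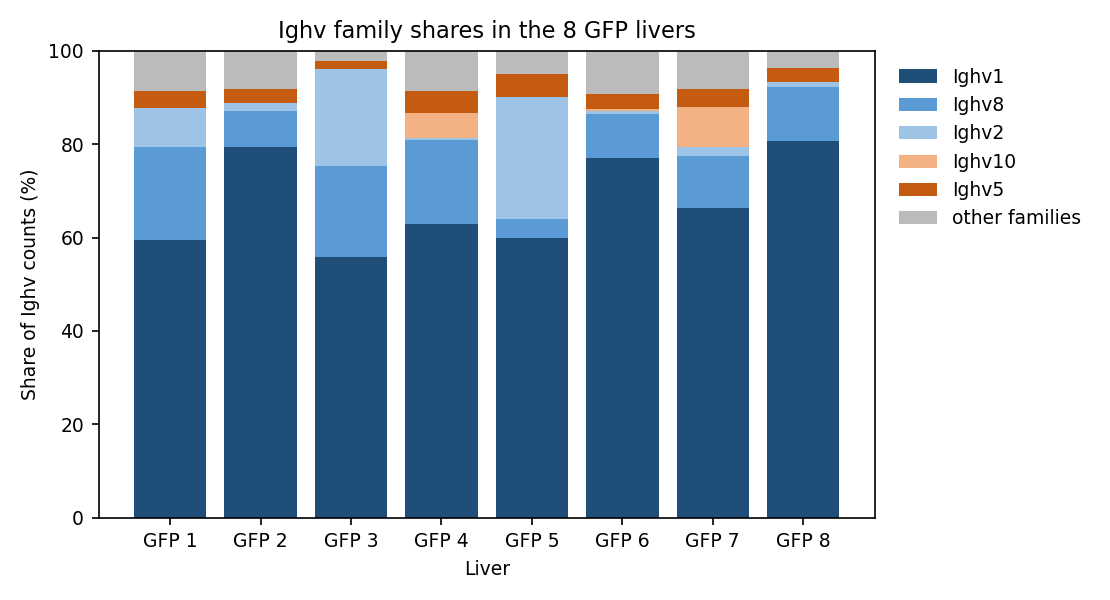
Share of each GFP liver's Ighv counts (%) by family, 1 bar per mouse, with the 5 families of most counts coloured and the rest in grey. Ighv1 takes 55.8% to 80.7% in each liver; Ighv2 is large in GFP 3 (20.7%) and GFP 5 (26.05%), and Ighv10 in GFP 7 (8.5%).

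Family makeup differed among the control mice more than the place of Ighv1 did. Ighv1 took the largest share in each GFP liver, from 55.8% in GFP 3 to 80.7% in GFP 8. Ighv8 took from 4.0% in GFP 5 to 19.9% in GFP 1. Ighv2 took 20.7% in GFP 3 and 26.05% in GFP 5, 8.4% in GFP 1, and no more than 2.0% in the other 5.

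All 108 segments were found on chromosome 12 in the annotation, between 113574245 and 116000461, 107 of them on the minus strand. The D, J and constant genes lie at lower coordinates, with Ighj1 144 kb before the first of these segments. By annotation class, 104 were V genes, 3 V pseudogenes and 1 of the class IG_LV_gene, and these last 4 had 0 counts in every liver. In windows of 0.5 Mb counted from the end nearest the J segments, GFP counts were 934, 921, 1316, 1996 and 3007, or 11.4%, 11.3%, 16.1%, 24.4% and 36.8% of the total. The windows held 30, 24, 20, 16 and 18 segments, so the most counts per segment were in the farthest windows, where Ighv1-63 and Ighv8-12 lie. In arcA livers the same windows held 14, 38, 18, 11 and 15 counts. The 45 segments beyond the midpoint of the locus took 66.2% of GFP counts and 27.1% of arcA counts. Their share was 38.3% in GFP 5 and 90.3% in GFP 8, so livers of the same group differed widely.

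**Figure D4:**
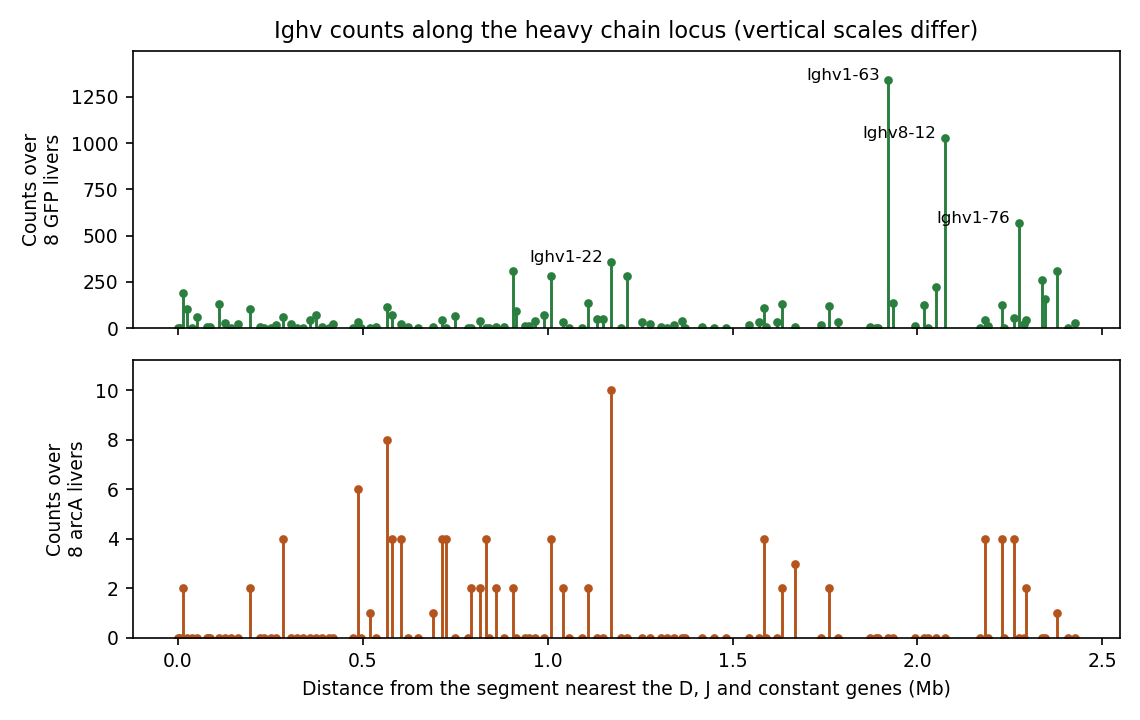
Counts of each segment over the 8 GFP livers (top) and the 8 arcA livers (bottom) against distance in Mb from the segment nearest the D, J and constant genes; each stem is 1 segment and the vertical scales differ. GFP counts peak at Ighv1-63 and Ighv8-12 near the far end, and arcA counts stay at or below 10 per segment.

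The V segments were read beside the other parts of the heavy chain message. The joining segments Ighj1 to Ighj4, joined by DNA recombination to D and V in the same exon, had 27 to 257 counts per GFP liver, 606 in all, and 0 to 4 per arcA liver, 8 in all. Of the heavy chain constant genes, 7 of 8 were found in the table, and 5 of 5 tested were lower in arcA livers, with a median log2 fold change of -6.86. Their sum was 51.2 to 462 CPM in GFP livers and 0.927 to 2.71 CPM in arcA livers, from 62597 and 573 counts. For every 100 constant gene counts, a GFP liver held 11.6 to 17.6 Ighv counts, with a median of 14.6. An arcA liver held 7.27 to 41.2, with a median of 17.03, so the groups overlapped in this ratio. Pooled over livers the ratio was 13.1 per 100 in GFP and 16.8 per 100 in arcA livers, and the ratio of group means was 79.0 for the V segments and 99.3 for the constant genes.

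**Figure D5:**
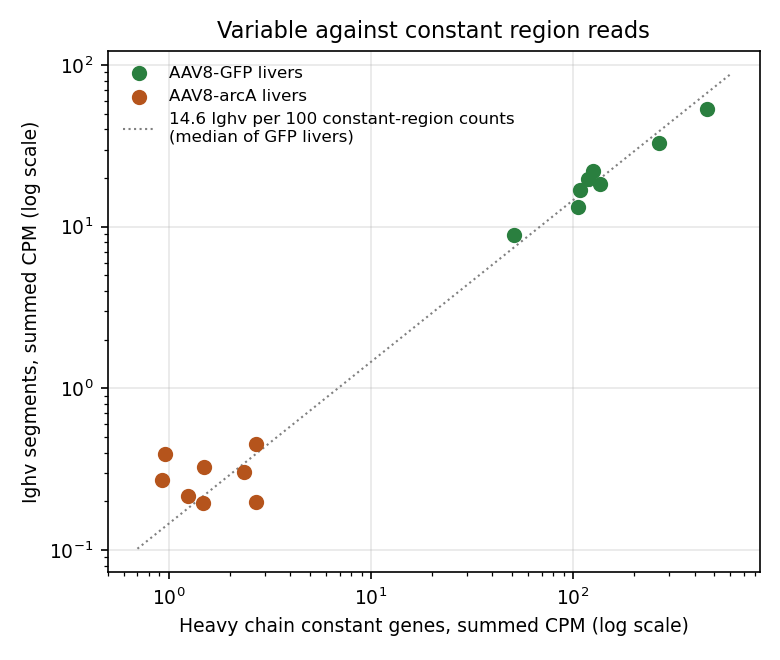
Summed CPM of the Ighv segments against summed CPM of the heavy chain constant genes, both on log scales, 1 point per mouse; the dotted line marks 14.6 Ighv counts per 100 constant gene counts, the median of the GFP livers. GFP livers lie close to the line between 8.87 and 53.7 CPM of Ighv, and arcA livers scatter around it below 0.450 CPM.

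The class of constant gene beside those V segments was different. Ighm, the constant gene of IgM, made up 0.949% to 3.98% of constant gene counts in GFP livers, with a median of 1.64%. In arcA livers it made up 45.8% to 67.6%, with a median of 61.1%, and the groups did not overlap. In counts, Ighm had 868 in GFP and 337 in arcA livers, and all other heavy constant genes had 61729 and 236. Ighm fell by 1.33 on the log2 scale in the edgeR fit (SE 0.274, adjusted p = 0.00404). Ighg2c, a constant gene of the IgG class, fell by 9.27 (edgeR, SE 0.524, adjusted p = 1.33e-07), from 18.7 to 84.8 CPM in GFP livers to between 0 and 0.190 CPM in arcA livers. Which V segments were joined to which constant gene is not recorded in counts per gene.

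Light chain constant genes and some plasma cell genes were lower in arcA livers. Both light chain constant genes tested, Igkc and Iglc2, were called lower. Of 12 plasma cell markers, 8 were tested, 3 were lower and 1 higher, with a median log2 fold change of -0.21. Jchain, which joins units of IgA and IgM, fell by 5.66 (edgeR, SE 0.445, adjusted p = 2.92e-06), and Mzb1, a chaperone of antibody-secreting cells, fell by 3.17 (SE 0.457). Fkbp11, a folding factor of the secretory pathway, fell by 0.44. Sdc1, a cell surface proteoglycan also made by hepatocytes, rose by 0.37 (edgeR, SE 0.103, adjusted p = 0.0238), and missed the threshold without GFP 7 (adjusted p = 0.0510). Xbp1 and Txndc5 differed by -0.08 and -0.02 and are abundant in liver at large, so the summed level of the plasma cell list, 614 to 682 CPM in GFP and 622 to 885 CPM in arcA livers, is mainly theirs and that of Sdc1. Derl3 and Eaf2, both at low counts, were tested and not called in edgeR (log2 fold changes 0.14 and -0.34, adjusted p = 0.926 and 0.456). Derl3 had 159 counts in GFP and 178 in arcA livers, 81 of the latter in 1 liver. Eaf2 had 215 and 170. No gene of the list was at 0 over either group. Prdm1 and Irf4, factors of plasma cell development, were below the filter, with 160 and 112 counts in GFP and 34 and 29 in arcA livers.

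Markers of B cells at large had smaller differences than the V segments. Of 10, 2 were tested and both were lower, with a median log2 fold change of -1.10. Cd79b, the signalling partner of the B cell receptor, fell by 1.46 (edgeR, SE 0.331, adjusted p = 0.00720), and the adaptor Bank1 fell by 0.73 (SE 0.207). Bank1 lost its edgeR call when GFP 6, arcA 1 or arcA 4 was left out (adjusted p of 0.0514, 0.0507 and 0.0517). The summed level of the 10 was 2.68 to 6.22 CPM in GFP livers and 1.52 to 2.09 CPM in arcA livers, with no overlap and no marker at 0 over either group. Ms4a1, a surface protein of B cells, was below the filter, with 90 counts in GFP and 24 in arcA livers. Whether the V segment counts follow B cells or plasma cells was not tested.

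Genes that rearrange and edit antibody genes were at or near 0, or did not pass the test. Rag1, part of the V(D)J recombinase, had 3 counts in GFP and 0 in arcA livers, and Rag2, its partner, had 0 in every liver. Igll1, part of the surrogate light chain, had 2 counts in each group. Dntt and Ung were tested and not called, at log2 fold changes of 0.04 and -0.20, so 0 of 2 tested genes of this list were called. Among factors that bind the octamer of antibody gene promoters, Pou2f2 fell by 0.79 (edgeR, SE 0.201, adjusted p = 0.0150) as the only 1 of 3 tested. Pou2af1, its coactivator in B cells, had 109 and 36 counts and was below the filter. None of 3 tested genes for B cell survival and homing was called in edgeR with all mice, among them Cxcl12 at 0.20 and Cxcl13 at 0.77. Of the 219 arcA counts of Cxcl13, 124 came from 1 liver, and its log2 fold change went as low as -0.22 with 1 library left out. Cxcl12 passed the edgeR threshold without GFP 3 (adjusted p = 0.0304) or without arcA 7 (adjusted p = 0.0420). It also passed in edgeR with surrogate variables (adjusted p = 0.0242) and without GFP 2, 3 and 5 (adjusted p = 0.0435).

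Genes that bind or move antibodies were measured as well. Of 7 tested, 4 were called lower and 0 higher in edgeR. Fcgr3 fell by 0.72 (edgeR, SE 0.150, adjusted p = 0.00406), and Fcer1g, Fcgr4 and Fcgr1 fell by 0.77, 0.80 and 0.91; these encode activating Fc receptors of myeloid cells or their shared signalling chain. The call of Fcgr1 was lost in edgeR when any of 8 libraries was left out, GFP 5, 6 or 7 or arcA 1, 2, 4, 5 or 6, with adjusted p-values of 0.0541 to 0.0865. Pigr, which carries IgA into bile, and Fcgrt, the neonatal Fc receptor, had log2 fold changes of 0.14 and 0.13 that did not pass the edgeR test. By DESeq2, Fcgrt was called higher in arcA livers (log2 fold change 0.12, adjusted p = 0.0317).

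Markers of other cells were taken for comparison. All 8 of the T cell markers tested were lower (median log2 fold change -3.02). Their summed level was 8.25 to 15.9 CPM in GFP and 0.732 to 2.49 CPM in arcA livers. Cd8a fell by 4.84 (edgeR, SE 0.367, adjusted p = 1.33e-07). Markers of blood left in the tissue were not called in any of 5 cases, with a median of 0.11 and summed levels of 379 to 1010 CPM in GFP and 432 to 887 CPM in arcA livers, which overlap. Of 5 hepatocyte genes, Fgb rose by 0.64 (edgeR, SE 0.145, adjusted p = 0.00764) and the other 4 were not called, although Ttr passed without arcA 8 (edgeR, adjusted p = 0.00565). Neutrophil markers (2 tested) and follicle stroma genes (1 tested) were not called, and the stroma gene Ccl21a had 0 counts in every liver. Gm42418 and Lars2, tracked as signs of RNA quality, had log2 fold changes of -1.11 and -1.42 and were not called in edgeR. By DESeq2, Lars2 was called lower in arcA livers (log2 fold change -1.42, adjusted p = 0.0351). The part of T cells, blood or RNA quality in the Ighv difference was not tested. Without GFP 2, 3 and 5, the livers with the most Gm42418, the ratio of mean Ighv CPM was 90.8, against 79.0 with all mice.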

How the data were processed

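Counts per gene symbol were used as deposited by the authors, with a column for each library. The submitters' processing notes name bcl2fastq, STAR 2.5.1a and featureCounts 1.4.6-p5 (Subread) with GRCm38. RNA was extracted with Trizol, and oligo-dT is named, per the labels' protocols. The sources used here do not give the annotation release, the strand setting or the handling of read pairs and of reads that match several segments. The table held 40757 lines, of which 348 exact copies were removed. Positions, classes and sequences came from GENCODE M21 by symbol, which need not be the release used for counting.

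Groups were compared in edgeR 4.0.16 under R 4.3.3 (glmQLFTest, robust; TMM scaling, filterByExpr, group as the only term, Benjamini-Hochberg over all lines tested, threshold 0.05), arcA over GFP. Sums, shares and ratios of segments carry no test. A segment at 0 in the arcA group was compared with a floor of 3 counts over that group. Intervals are exact at 95% and cover counting error only. No molecular identifiers are described, so reads need not be independent molecules. On simulated counts for these 14476 genes, true 2-fold changes were called in 56 of 67 genes, 4-fold in 66 of 67 and 16-fold in 64 of 65. There were 5 false calls among 14156 unchanged genes. The changes were placed only in genes above a minimum mean count that most Ighv segments do not reach. These rates therefore do not describe the power for single segments.

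The segments and gene lists were chosen with earlier results of these data known. Segments were named if among the 20 with the most counts over all livers, the leader of a GFP liver, the 5 with the most arcA counts, or Ighv1-63 and Ighv8-12. All families were named, with up to 4 genes per list. Other names (Ighv15-2, Ighv7-3, Ighv9-1, Ighv6-4, Ighv9-4 and Ighv1-53, and genes beyond 4 in a list) were chosen after their values were seen. Alternatives were RLE, upper-quartile and library-size scaling, other filters, DESeq2 1.42.0, limma 3.58.1 voom, sva 3.50.0 (5 surrogate variables), a replicate block, counts halved and rounded down, copies kept, and libraries left out. A planned search of segment promoters was not run. Some genes of the lists are not reported here.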

Additional observations from a re-analysis of the deposited data

Results flagged for a closer look

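In 50 sets of values, each from the livers of 1 group, single livers were compared with the other 7 of that group. A value was flagged if its gap to the nearest other liver exceeded Dixon's critical value of 0.526 of the range. There were 18 flags, all in GFP livers. Segments and families with fewer than 10 counts over a group were left out, so few of the 50 sets came from arcA livers. A rate of about 1 in 20 sets flagged by chance holds only for normally distributed values. CPM and counts were used here without a log transform, so that rate need not apply. Many sets are segments named for a high total count, which 1 high liver can raise, and many share livers and segments. The number of flags was therefore not compared with chance. Of the 18, 10 were in GFP 7, the liver with the most Ighv counts. In GFP 7 they were Ighv1-63 (14.5 CPM), Ighv10-1 (4.42 CPM), Ighv1-82 (4.20 CPM), Ighv1-69 (2.57 CPM), Ighv1-81 (1.62 CPM) and the sums of the families Ighv1 (35.5 CPM), Ighv3 (1.25 CPM), Ighv10 (4.55 CPM) and Ighv15 (1.17 CPM). The tenth was its 257 Ighj counts, next to 104 in GFP 1.

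GFP 8, the control liver with the fewest Ighv counts, stood apart by its use of segments, with a leading share of 43.8% (next highest 27.0%) and a Simpson concentration of 21.6% (next highest 11.3%). GFP 1 stood apart in Ighv2-5 (2.53 CPM) and the family Ighv7 (1.61 CPM). GFP 2 stood apart in Ighv1-74 (2.10 CPM) and Ighv1-4 (2.21 CPM), GFP 4 in Ighv1-80 (4.81 CPM) and GFP 5 in Ighv2-2 (5.54 CPM). Each of these was the highest value of its set.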

How the results depend on the processing

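The log2 ratio of mean Ighv CPM, -6.30, lay between -6.50 and -5.81 over 24 alternatives. It was -5.81 without GFP 1 and 7 and -5.84 without Ighv1-63 and Ighv8-12, both chosen after seeing the data. Over 29 alternatives, Ighv8-12 remained called lower (adjusted p up to 0.00564, edgeR and the other tools) and Ighv1-63 lost its call only with surrogate variables (-11.65, adjusted p = 0.188). The number of segments called lower, 2, was 38 without a filter, 1 with surrogate variables and 4 without arcA 3 and 8, where Ighv1-22 and Ighv1-64 also passed the filter. Leaving out 1 library at a time gave 2 to 2 lower and 0 to 0 higher. Requiring 1 CPM in 8 or more libraries left no segment to test. The 3 segments without overlap between groups numbered 3 to 6 when 1 library was left out, with 6 without GFP 3 and 5 without GFP 8. The family Ighv7 moved to -0.33 without GFP 1. The median number of segments detected per GFP liver, 14.5 at a minimum of 10 counts, was 25 at 3 counts and 39 at 1 count, and per arcA liver it was 0, 1 and 6. Of 27 called genes in the lists, 19 remained called under every alternative that tested them, and 8 lost the call without GFP 1 and 7, with fewer mice in the fit. Same-numbered livers deviated together little, with correlations of -0.05 to 0.16, over 0.1 in 2 of 8 pairs. Of the 8 GFP livers, 2 correlated best with the arcA liver of their own number. These correlations gave no clear sign of pairing by number, but they cannot exclude it. With the replicate number as a block, 2 segments were called lower, and 876 genes were lower and 592 higher, against 951 and 618. Depth limits all statements on single segments in arcA livers.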
